A study of Mus musculus with 8 samples.

Results

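Small leucine-rich proteoglycans and testicans were followed across the 4 groups of a mouse astrocyte experiment. The members were the 7 genes BGN, DCN, LUM, FMOD, SPOCK1, SPOCK2 and SPOCK3, taken by their symbols. Of these, 6 were among the 13937 genes of the count table, and all 6 were among the 13509 genes that passed the filter on low counts. SPOCK1 stood only in the table of length-scaled values. The libraries came from primary neonatal brain astrocytes of C57BL/6 pups at postnatal day 1, either wild type (WT) or carrying the RGC-32 knock-out (KO). RGC-32, encoded by RGCC, is a regulator of the cell cycle and of TGF-β responses. Each genotype was left untreated (control) or received TGF-β at 10 ng/ml for 24 h after overnight serum starvation, which gave 4 groups of 2 biological replicates. All 8 libraries thus shared the strain, the culture in serum and the starvation. How the knock-out allele was built, and whether pups were pooled for a culture, are not given in the sources used here.

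Small leucine-rich proteoglycans are secreted proteins with a core of leucine-rich repeats that carries sulfated sugar chains. Biglycan (BGN) and decorin (DCN) carry chondroitin or dermatan sulfate, whereas lumican (LUM) and fibromodulin (FMOD) carry keratan sulfate. They bind collagen fibrils and set their diameter, and several also bind TGF-β in the matrix. Testicans, the products of SPOCK1, SPOCK2 and SPOCK3, are calcium-binding proteoglycans related to SPARC that are abundant in brain and act on matrix proteases.

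The libraries held 14920561 to 18956038 counts each. RGCC, the targeted gene, had 80 and 94 counts in WT control, 215 and 362 in WT TGF-β, 61 and 28 in KO control and 64 and 26 in KO TGF-β. Reads of RGCC were therefore lower in every KO library than in every WT library, but not absent. Which part of the gene was deleted is not given in the sources used here. The genotype difference of RGCC was not called in edgeR under either treatment. WT minus KO, it was log2 0.97 (SE 0.53, adjusted p = 0.78) without TGF-β and 2.54 (SE 0.48, adjusted p = 0.133) with TGF-β. DESeq2 called the difference with TGF-β (log2 2.55, adjusted p = 0.0285), so that call depended on the tool. RGCC rose with TGF-β in WT (log2 1.69, SE 0.44, adjusted p = 0.0221, edgeR), a call lost without either WT control library or WT TGF-β replicate 2 (adjusted p = 0.0786, 0.08 and 0.141) and in DESeq2 (adjusted p = 0.0525). All 10 astrocyte markers on the list used here were detected and tested, with a summed level of 3390 to 5640 CPM, the count scaled to the normalized library total.

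In the GRCm38 assembly (mm10), with positions from GENCODE M21, 4 members lay in families of neighbouring genes or beside a gene of the same pathway. Dcn (chr10:97479609-97518143, plus strand) was followed directly by Lum (chr10:97565128-97572703, plus strand), then by Kera and Epyc, which encode further leucine-rich proteoglycans. Fmod (chr1:134037254-134048277, plus strand) lay next to Prelp. Spock2 (chr10:60106219-60135198, plus strand) lay next to Chst3, a chondroitin sulfotransferase gene. The others stood apart, Bgn at chrX:73483602-73495933 (plus strand), Spock1 at chr13:57421195-57908332 (minus strand) and Spock3 at chr8:62951009-63357103 (plus strand). Genes annotated within Spock2 and Spock3 shared 0 exon bases with them, so no annotated exon there could take reads from a member.

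The promoters of 4 members are shown, because these members span the range from the largest rise with TGF-β (BGN) through smaller ones (SPOCK3, SPOCK2) to no call in WT (FMOD). Each is the 250 bases before a RefSeq transcription start in GRCm38.p6, and for SPOCK3 the upstream of 2 listed starts. RefSeq promoter entries were found for 5 of the 7 members, not for DCN and LUM.
BGN promoter, chrX:73483351-73483600, plus strand: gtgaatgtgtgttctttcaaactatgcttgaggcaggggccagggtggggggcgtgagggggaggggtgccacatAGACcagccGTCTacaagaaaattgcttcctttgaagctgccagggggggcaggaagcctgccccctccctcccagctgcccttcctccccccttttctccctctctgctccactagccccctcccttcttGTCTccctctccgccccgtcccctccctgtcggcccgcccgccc
SPOCK3 promoter, chr8:62950982-62951231, plus strand: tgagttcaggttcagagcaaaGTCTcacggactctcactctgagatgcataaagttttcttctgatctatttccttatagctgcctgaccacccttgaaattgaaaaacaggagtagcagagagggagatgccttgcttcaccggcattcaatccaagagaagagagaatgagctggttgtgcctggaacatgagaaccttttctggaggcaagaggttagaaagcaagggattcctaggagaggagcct
SPOCK2 promoter, chr10:60106007-60106256, plus strand: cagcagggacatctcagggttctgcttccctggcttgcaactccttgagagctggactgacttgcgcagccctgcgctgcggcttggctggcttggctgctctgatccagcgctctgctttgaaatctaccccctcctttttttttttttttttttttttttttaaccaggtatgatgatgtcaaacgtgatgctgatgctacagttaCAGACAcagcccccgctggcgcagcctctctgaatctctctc
FMOD promoter, chr1:134037004-134037253, plus strand: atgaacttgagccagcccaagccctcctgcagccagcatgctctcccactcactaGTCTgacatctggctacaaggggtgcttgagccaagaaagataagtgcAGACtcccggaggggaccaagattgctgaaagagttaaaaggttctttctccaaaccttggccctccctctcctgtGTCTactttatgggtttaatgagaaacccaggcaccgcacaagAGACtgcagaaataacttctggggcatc
Capitals mark AGAC on either strand (GTCT on the printed strand), the core of the SMAD-binding element, and CAGACA, which contains it. AGAC occurred 3 times for BGN, 4 times for FMOD, 1 time for SPOCK2 (within CAGACA), 1 time at the printed SPOCK3 start and 0 times at the other. It was found in 82.9% of 32851 mouse promoters of the same length, and CAGACA in 17.1%. TGANTCA, with any base at N, was searched too, a looser pattern than the AP-1 element, which has C or G there. It occurred in 6.75% of promoters and among the members only in that of SPOCK1, 1 time. The copy of SPOCK1 read TGAATCA, which is not the AP-1 element itself. FMOD, which was not called in WT, held more copies of AGAC than BGN. These matches are only a description of the letters, and their part in the responses was not tested.

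Levels were compared between genes in FPKM, fragments scaled to library size and to transcript length. BGN had the highest FPKM of the members in every library and SPOCK1 the lowest. In WT control the mean FPKM was 399.9 ± 1.24 for BGN, 279 ± 22.3 for FMOD and 148 ± 7.50 for DCN (SD, n = 2 here and throughout). The other members were far lower. SPOCK3 stood at 7.23 ± 1.63 FPKM, LUM at 2.21 ± 0.526, SPOCK2 at 0.966 ± 0.0298 and SPOCK1 at 0.0602 ± 0.0270. From BGN down to SPOCK3 the order of neighbours was the same in all 4 groups, with no overlap of their libraries. LUM and SPOCK2 changed places. LUM lay above SPOCK2 in both WT groups, their libraries overlapped in KO control (1.55 to 1.80 for LUM, 1.26 to 1.56 for SPOCK2), and LUM lay below SPOCK2 in KO TGF-β (1.27 and 1.38 against 1.48 and 1.62).

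**Figure D1:**
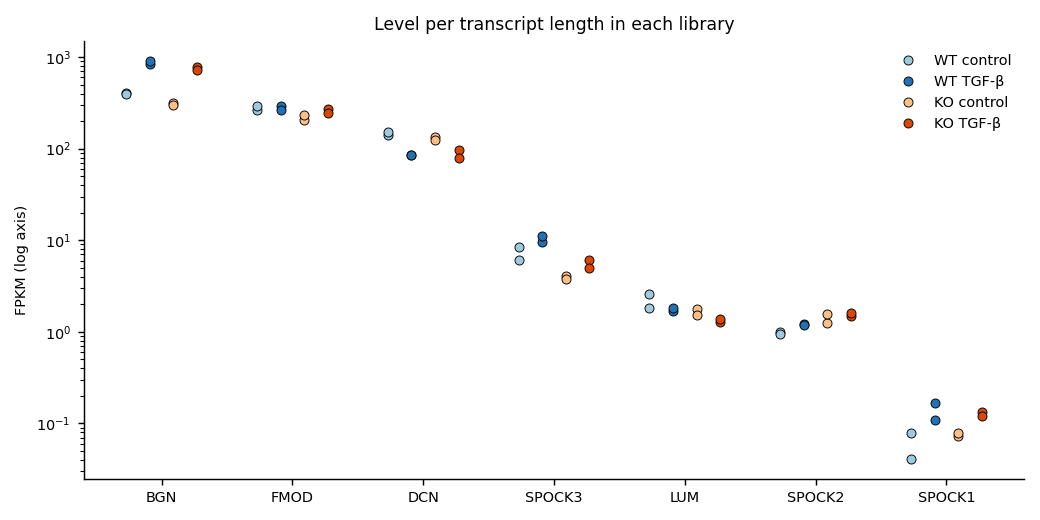
FPKM (log axis) of the 7 members in each of the 8 libraries, with 1 point per library and colours for the 4 groups. BGN, FMOD and DCN lie between 79.2 and 914 FPKM, SPOCK3 between 3.81 and 11.1, LUM and SPOCK2 between 0.945 and 2.58, and SPOCK1 at or below 0.166.

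The main comparison asked how the members responded to TGF-β in WT astrocytes. A gene was called in edgeR where its log2 fold change reached 0.6 in size (the fold limit) with an adjusted p below 0.05. BGN, SPOCK3 and SPOCK2 rose, DCN fell, and FMOD and LUM were not called. That is 3 of 6 up, where 7.72% of all genes tested were called up, and 1 of 6 down, where 5.65% were called down. The median log2 fold change was 0.38 over the 6 members and -0.0048 over all genes. In RGC-32 KO astrocytes only BGN was called, 1 of 6 up against 6.61% of all genes, and 0 of 6 fell against 4.93% of all genes. The median there was 0.32 over the members and 0.0031 over all genes. In bulk RNA, a change in the number of cells that express a gene cannot be told apart from a change in RNA per cell.

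BGN, which also signals through Toll-like receptors once released from the matrix, gave the largest response. Its level was 1077 and 1072 CPM in WT control, 2369 and 2881 in WT TGF-β, 845 and 749 in KO control and 2169 and 2215 in KO TGF-β. Every TGF-β library lay above every control library, and the WT libraries lay above the KO libraries of the same treatment. The rise was 2.44-fold in WT (log2 1.29, SE 0.11, adjusted p = 0.000252, edgeR). It was 2.75-fold in KO (log2 1.46, SE 0.11, adjusted p = 0.000205, edgeR). BGN remained called in both genotypes under all 16 alternatives, with log2 fold changes of 1.12 to 1.43 in WT and 1.28 to 1.53 in KO.

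DCN, the closest relative of BGN and a ligand that holds TGF-β in the matrix, moved the other way. Its level was 306 and 332 CPM in WT control, 214 and 202 in WT TGF-β, 280 and 263 in KO control and 232 and 193 in KO TGF-β. In each genotype both TGF-β libraries lay below both controls. In WT the fall was 1.54-fold (log2 -0.62, SE 0.095, adjusted p = 0.00259, edgeR). It lay close to the fold limit, and the call was lost without WT control replicate 2 (log2 -0.58) or without WT TGF-β replicate 2 (log2 -0.60), where the adjusted p was 0.0155 and 0.0199. In KO the log2 fold change was -0.36 (SE 0.095, adjusted p = 0.0272), smaller than the fold limit and not called.

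FMOD, which shapes collagen fibrils, had the next highest level after BGN on the FPKM scale. It stood at 842 and 964 CPM in WT control, 1013 and 965 in WT TGF-β, 662 and 727 in KO control and 936 and 848 in KO TGF-β. The WT groups all but touched, whereas both KO TGF-β libraries lay above both KO controls. The log2 fold change was 0.13 (95% interval -0.09 to 0.35, adjusted p = 0.322) in WT and 0.36 (0.14 to 0.58, adjusted p = 0.0251) in KO, the latter under the fold limit.

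LUM, which organises fibrils in the cornea, was rare despite lying beside DCN. It had 58 and 85 counts in WT control, 59 and 60 in WT TGF-β, 53 and 52 in KO control and 41 and 45 in KO TGF-β. In CPM these were 3.74 and 5.07, 3.26 and 3.84, 3.38 and 3.08, and 2.75 and 2.97, so the WT groups overlapped. The log2 fold change was -0.32 (95% interval -0.79 to 0.15, adjusted p = 0.262) in WT and -0.17 (-0.68 to 0.33, adjusted p = 0.587) in KO. Neither change was called, and both intervals include 0.

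**Figure D2:**
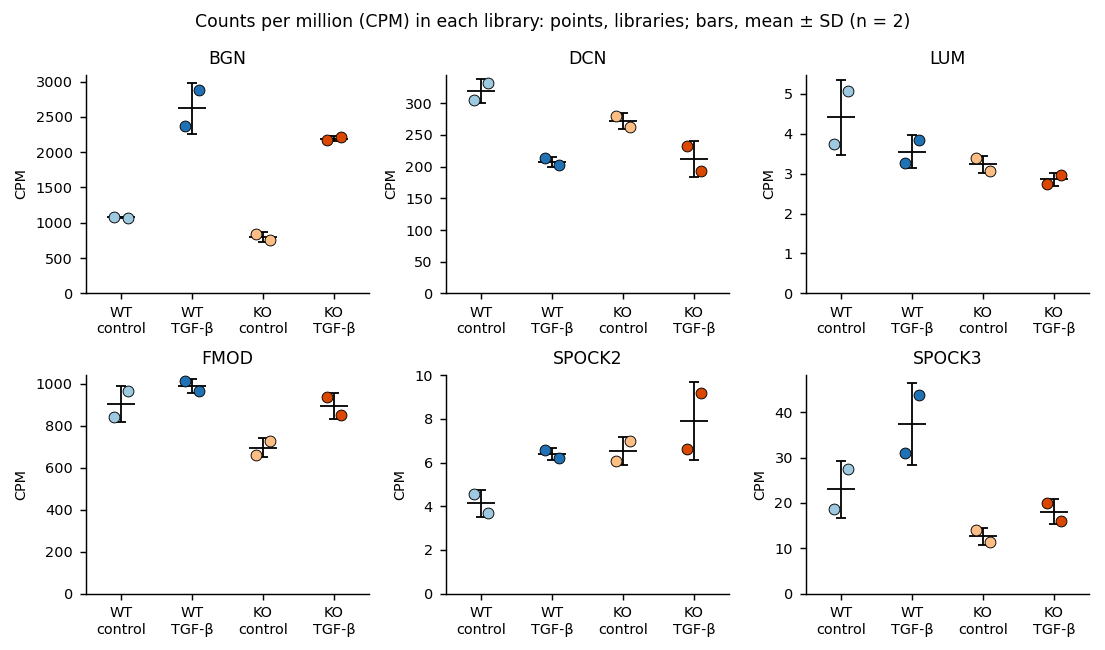
CPM of the 6 counted members in each library (points) with the mean and SD of each group (bars, n = 2), each axis starting at 0. BGN is higher with TGF-β in both genotypes, DCN is lower, and SPOCK3 lies higher in WT than in KO under either treatment.

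Among the testicans, SPOCK3 was the most abundant. SPOCK3 holds back the activation of MMP2 by membrane-type proteases. It stood at 18.6 and 27.5 CPM in WT control, 31.0 and 43.8 in WT TGF-β, 14.0 and 11.4 in KO control and 20.0 and 16.1 in KO TGF-β. Within each genotype the TGF-β libraries lay above the controls, and the WT replicates were further apart than those of KO. SPOCK3 rose 1.62-fold in WT (log2 0.69, SE 0.22, adjusted p = 0.0458, edgeR). The call was lost in 8 of 16 alternatives, including those without WT control replicate 1 (log2 0.44, adjusted p = 0.189) and without WT TGF-β replicate 2 (log2 0.41, adjusted p = 0.272). In KO the log2 fold change was 0.51 (95% interval -0.06 to 1.08, adjusted p = 0.159), not called.

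SPOCK2 counteracts the inhibition of those proteases by the other testicans. It had 71 and 62 counts in WT control, 119 and 97 in WT TGF-β, 95 and 118 in KO control and 99 and 139 in KO TGF-β. In CPM these were 4.58 and 3.70, 6.58 and 6.20, 6.06 and 6.98, and 6.63 and 9.18. The WT control libraries were the lowest of all, and the KO groups overlapped. SPOCK2 rose 1.55-fold in WT (log2 0.63, SE 0.20, adjusted p = 0.0468, edgeR), but the call was lost in 13 of 16 alternatives, including DESeq2 (adjusted p = 0.136) and the loss of any of the 4 WT libraries (adjusted p = 0.0598 to 0.227). In KO its log2 fold change was 0.28 (95% interval -0.16 to 0.72, adjusted p = 0.311).

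SPOCK1, known as an inhibitor of cathepsin L, was the least abundant. It was listed at 0.0793 and 0.0411 FPKM in WT control, 0.110 and 0.166 in WT TGF-β, 0.0735 and 0.0794 in KO control and 0.132 and 0.120 in KO TGF-β. All TGF-β libraries lay above all controls, but the reads behind these values are unknown. No test is given for it, because it passed the filter on low values (at least 0.1 FPKM in at least 2 libraries) only through the TGF-β libraries, with all 4 controls under 0.1 FPKM.

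**Figure D3:**
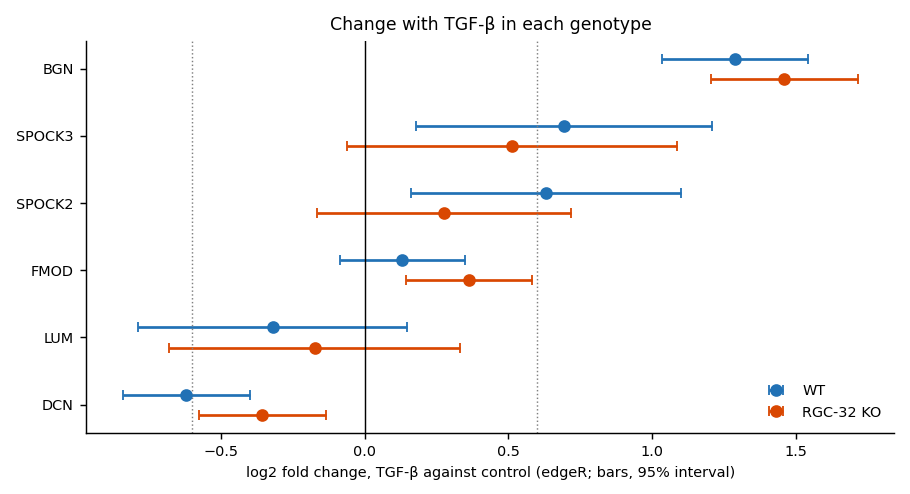
log2 fold change of the 6 counted members with TGF-β in each genotype, WT or RGC-32 KO (points, edgeR) with 95% intervals (bars); dotted lines mark the fold limit of 0.6. BGN lies at 1.29 and 1.46 and DCN at -0.62 and -0.36, and the intervals of the 2 genotypes overlap for every member.

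Whether the response differed between the genotypes was tested as the interaction in the same edgeR fit. No member was called, and 0% of all genes were (0 by edgeR and 0 by DESeq2, while the unadjusted edgeR p was under 0.05 for 381 genes). A call in WT alone therefore did not show that DCN, SPOCK3 or SPOCK2 responded differently in KO. The difference of log2 fold changes, WT minus KO, was -0.26 for DCN (95% interval -0.57 to 0.05), 0.18 for SPOCK3 (-0.59 to 0.95) and 0.35 for SPOCK2 (-0.29 to 1.00). For BGN it was -0.17 (-0.52 to 0.18), for FMOD -0.23 (-0.54 to 0.08) and for LUM -0.15 (-0.84 to 0.54). The adjusted p was 1 for all 6.

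WT and RGC-32 KO astrocytes were then compared within each treatment. None of the 6 counted members was called without TGF-β, where 0.037% of all genes were, or with TGF-β, where 0.0444% were. Without TGF-β, the estimate was lower in KO for 5 of the 6 and higher for SPOCK2. The log2 difference, WT minus KO, was 0.87 for SPOCK3 (95% interval 0.31 to 1.42, adjusted p = 0.547) and -0.66 for SPOCK2 (-1.13 to -0.19, adjusted p = 0.60). It was 0.43 for BGN (0.18 to 0.68, adjusted p = 0.47), 0.38 for FMOD (0.16 to 0.60, adjusted p = 0.47), 0.45 for LUM and 0.23 for DCN. With TGF-β it was 0.26 for BGN, 0.15 for FMOD, 0.31 for LUM, -0.03 for DCN and -0.31 for SPOCK2, with adjusted p of 0.409 to 0.93.

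SPOCK3 showed the widest gap between the genotypes with TGF-β as well. There its log2 difference, WT minus KO, was 1.05 (95% interval 0.52 to 1.58), or 2.07-fold, with an adjusted p of 0.179 in edgeR and 0.000911 in DESeq2. Over both treatments together, a contrast added after these values were seen, the difference was 0.96 (SE 0.17), or 1.94-fold. Its adjusted p was 0.0647 in edgeR, where 0.126% of all genes were called, and 9.36e-07 in DESeq2, so the call depended on the tool. Each of the 4 WT libraries lay above the KO libraries of its treatment.

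Ratios within a library describe the balance between members, given here with no test. The FPKM of BGN relative to DCN was 2.71 ± 0.146 in WT control and 10.4 ± 0.666 in WT TGF-β, and it was 2.37 ± 0.00495 in KO control and 8.52 ± 0.808 in KO TGF-β. FMOD relative to DCN was 1.89 ± 0.0552 and 3.30 ± 0.216 in WT control and TGF-β, and 1.70 ± 0.241 and 2.96 ± 0.223 in the KO groups. The ratio of SPOCK3 to SPOCK2 split by genotype instead, at 7.51 ± 1.92 and 8.55 ± 1.10 in WT control and TGF-β against 2.86 ± 0.588 and 3.63 ± 0.759 in KO. This split restates that SPOCK3 was lower and SPOCK2 higher in KO within each treatment, differences that edgeR did not call.

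**Figure D4:**
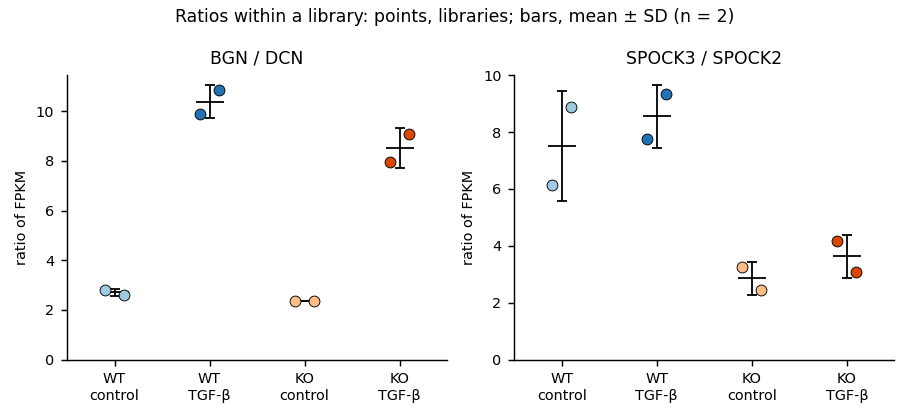
Ratio of FPKM of BGN to DCN (left) and of SPOCK3 to SPOCK2 (right) in each library (points) with the mean and SD of each group (bars, n = 2), axes from 0. The left ratio separates TGF-β from control libraries in both genotypes, and the right ratio separates WT from KO. Neither SPOCK3 nor SPOCK2 alone was called between the genotypes in edgeR.

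BGN, DCN, LUM and FMOD are also made by fibroblasts of the meninges and vessels, and the meninges were removed before culture according to the study's methods. Those methods also shook off oligodendrocyte precursors and neurons, and report that nearly all isolated cells expressed the astrocyte marker GFAP. Of 17 fibroblast markers listed, 15 were in the count table and 14 were tested. The transporter markers SLC22A6, SLC6A13 and SLC47A1 were not among those tested. In both genotypes 5 of the 14 were called up (CRABP2, ALDH1A2, COL1A1, COL1A2 and PRRX1) and 2 down (GJB2 and SLC13A4). Over all genes tested, 7.72% were called up and 5.65% down in WT, and 6.61% and 4.93% in KO. The summed level of the 15 was 4180 to 5400 CPM in WT control, 8890 to 10000 in WT TGF-β, 3440 to 3630 in KO control and 6610 to 6760 in KO TGF-β. Without the 3 collagens, which TGF-β is known to induce, it was 528 to 609, 584 to 630, 487 to 500 and 542 to 583 CPM. The sum thus stood higher in WT than in KO under either treatment, but without the collagens the TGF-β libraries all but touched (584 and 583 CPM). Of the 14 markers tested, 0 were called between the genotypes under either treatment. That is near the share over all genes, 0.037% without TGF-β and 0.0444% with it. BGN, FMOD, LUM and SPOCK3 also stood higher in WT, whereas SPOCK2 stood lower. DCN overlapped with TGF-β (214 and 202 CPM in WT, 232 and 193 in KO). The part of the fibroblast list in the results was not tested.

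Markers of pericytes and smooth muscle, of which 6 of 9 were tested, summed to 224 to 228 CPM in WT control and 628 to 718 in WT TGF-β, and to 196 to 203 in KO control and 459 to 544 in KO TGF-β. In both genotypes PDGFRB, CSPG4, MYH11 and NOTCH3 were called up, as was BGN. That is 4 of 6, where 7.72% of all genes tested were called up in WT and 6.61% in KO. Most of the summed rise lay in CSPG4 and PDGFRB. CSPG4 went from 32.0 to 280 CPM in WT and from 29.0 to 186 in KO. PDGFRB went from 124 to 251 CPM in WT and from 106 to 196 in KO. RGS5 was not called (3.94 and 4.43 CPM in WT control and TGF-β, 4.71 and 4.82 in KO), and VTN was called down in KO (6.29 and 2.40 CPM). Their part was not tested. The summed astrocyte markers were 4260 to 4460 CPM in WT control, 3390 to 3510 in WT TGF-β, 4970 to 5640 in KO control and 4230 to 4490 in KO TGF-β. Of the 10, SLC1A2 alone was called, down in both genotypes, where 5.65% of all genes were called down in WT and 4.93% in KO. GJA1 went the other way, from 344 to 438 CPM in WT and from 340 to 427 in KO. S100B went from 12.6 to 11.5 CPM in WT and from 14.6 to 15.4 in KO. Microglial markers summed to 1030 to 1360 CPM, oligodendrocyte lineage markers to 197 to 271, and neuronal markers to 88.1 to 120. Choroid plexus markers summed to 91.5 to 107 CPM in WT control and 44.6 to 49.4 in WT TGF-β, and to 86.6 to 95.4 in KO control and 49.1 to 54.7 in KO TGF-β, with AQP1 and KCNJ13 called down in both genotypes. Endothelial markers summed to 101 to 124 and 78.8 to 81.4 CPM in WT control and TGF-β, and to 102 to 127 and 76.2 to 85.1 in the KO groups, with CDH5 called down and FLT1 called up in both. ERG, of the endothelial list, was not called but also stood higher with TGF-β. It was at 0.903 and 7.44 CPM in WT control and TGF-β, and at 0.861 and 7.20 in KO. KDR, of the same list, was called down in KO. The astrocyte, choroid plexus and endothelial sums were lower with TGF-β, as was DCN, and their part in its values was not tested.

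The other small leucine-rich proteoglycans and the genes around them on the pathway were counted from lists, to be read against all genes tested, of which 7.72% were called up and 5.65% down in WT, and 6.61% up and 4.93% down in KO. Over all genes the median was log2 -0.0048 for WT and 0.0031 for KO. Of 13 other family members, 9 were tested, and 1 was called up and 2 down in WT, against 1 up and 0 down in KO. The median of the 9 was -0.04 in WT and 0.09 in KO, and 1 of 9 called up is near the share over all genes. OGN (osteoglycin) fell in WT (log2 -0.85, SE 0.12, adjusted p = 0.00196, edgeR), from 390 ± 70.6 to 217 ± 8.49 CPM. In KO it went from 298 ± 25.9 to 210 ± 11.8 CPM (log2 -0.50, under the fold limit). EPYC (epiphycan), which shares the chromosome 10 cluster with DCN, fell in WT (log2 -0.65, adjusted p = 0.0343) and stood at log2 -0.31 in KO (adjusted p = 0.331). The WT call of EPYC was lost in DESeq2 (adjusted p = 0.156) and without WT control replicate 2 or either WT TGF-β library (adjusted p = 0.0607 to 0.173). PODNL1 was called up in WT on 3 and 2 counts in control and 16 and 10 in TGF-β, a call lost without any of these 4 libraries. PODN was called up in KO (log2 0.84, adjusted p = 0.0202, edgeR), from 39.7 ± 8.67 to 71.3 ± 10.45 CPM. In WT it went from 49.4 ± 11.3 to 66.9 ± 11.4 CPM and was not called. The interaction was called for 0 of the 9, so PODN was not shown to respond differently in KO.

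The SPARC-related genes, relatives of the testicans, were counted next. Of 5 tested, 2 rose and 1 fell in WT, and 3 rose and 1 fell in KO. The median over the list was log2 0.54 for WT and 0.64 for KO. FSTL1, a secreted glycoprotein, rose by 1.30 in WT and 1.33 in KO on the log2 scale. SMOC2, a matricellular protein, rose by 0.93 and 0.99. SPARCL1, an astrocyte protein that promotes synapse formation, fell by 0.97 and 0.90. SPARC itself was called in KO (log2 0.64) and stayed under the limit in WT (log2 0.54).

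Enzymes that build the sugar chains came next, with few genes in each list. Of 7 enzymes that start or shape the linker to the core protein, only XYLT1 was called. XYLT1 adds the xylose that starts chondroitin and dermatan sulfate chains. It rose by 1.58 in WT (adjusted p = 0.000601) and 1.17 in KO (adjusted p = 0.00231, edgeR). Of 4 enzymes of dermatan sulfate, the chain of BGN and DCN, UST rose by 1.21 in WT and 1.08 in KO. DSEL, an epimerase, was called in KO alone (0.79, against 0.52 in WT). Its KO call was lost on FPKM with a pseudocount of 1 or 0.1 (log2 0.51 and 0.58) and with Bonferroni correction. In WT its log2 fold change was 0.61 without WT TGF-β replicate 1. Of 5 tested enzymes of keratan sulfate, the chain of FMOD and LUM, 0 were called in either genotype. The median log2 fold change in WT and KO was 0.14 and 0.16 for the linker enzymes, 0.45 and 0.57 for the dermatan sulfate enzymes and 0.20 and 0.05 for the keratan sulfate enzymes.

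Receptors and proteases of these proteoglycans completed the lists. Of 8 receptors, 1 rose and 0 fell in WT, counts near the shares over all genes (7.72% and 5.65%), and 1 rose and 2 fell in KO (6.61% and 4.93%). The median over the list was log2 0.0036 for WT and -0.06 for KO. LRP1, the endocytic receptor that clears DCN, went from 670 ± 29.1 to 1458 ± 58.6 CPM in WT (log2 1.12, SE 0.095, adjusted p = 0.000252) and from 622 ± 78.1 to 953 ± 0.542 CPM in KO (log2 0.62, SE 0.095, adjusted p = 0.00313). The interaction of LRP1 was 0.50 (95% interval 0.20 to 0.81, adjusted p = 1). The call in KO was lost without KO control replicate 1 (log2 0.48) or KO TGF-β replicate 2 (log2 0.60). It was also lost with upper quartile scaling (log2 0.53), with Bonferroni correction, and on FPKM with a pseudocount of 1 or 0.1 (log2 0.42 and 0.43). MET and KDR were called down in KO, at -0.68 and -0.67, and had -0.57 and -0.50 in WT. The KO calls of MET and KDR were lost without KO control replicate 2 (adjusted p = 0.0517 and 0.0853) or KO TGF-β replicate 1 (0.0518 and 0.0935), and that of KDR also without KO TGF-β replicate 2 (0.0802).

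Of 12 tested proteases that cut these proteoglycans or are held by testicans, 6 rose and 0 fell in WT, and 5 rose and 1 fell in KO. The median over the list was log2 0.41 for WT and 0.48 for KO. ADAMTS4, which cuts BGN and DCN, rose by 2.47 in WT and 2.13 in KO on the log2 scale, with 20.1 ± 8.90 CPM in WT control and 112 ± 9.42 in WT TGF-β, against 20.2 ± 7.49 and 88.5 ± 1.04 in the KO groups. MMP14 and MMP2, the membrane-type protease and the enzyme it activates, rose by 1.27 and 1.08 in WT and by 1.15 and 1.05 in KO. TLL1, of the family that cuts the propeptide of BGN, rose by 1.24 and 1.22, and PCSK6, a proprotein convertase, by 0.98 and 0.93. The KO call of PCSK6 was lost without KO control replicate 2 or KO TGF-β replicate 2 (adjusted p = 0.0571 and 0.0579). BMP1, which also cuts that propeptide, was called in WT alone (0.61, against 0.46 in KO), and MMP15 was called down in KO alone (-0.65, against -0.44 in WT).

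**Figure D5:**
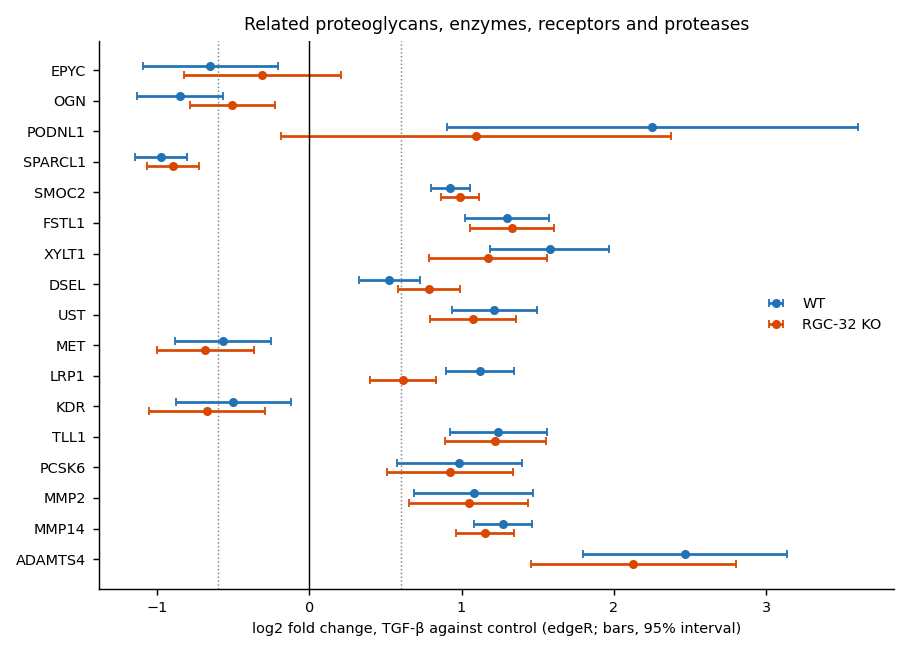
log2 fold change with TGF-β in WT and RGC-32 KO astrocytes (points, edgeR) with 95% intervals (bars) for the 17 genes named by rule from the lists of related genes; dotted lines mark the fold limit of 0.6. ADAMTS4 lies highest of those called in both genotypes, at 2.47 and 2.13, and SPARCL1 lowest, at -0.97 and -0.90.

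Genes whose pattern over the 8 libraries was most like each member were found by the Pearson r of log2 CPM among 13072 genes with a mean of at least 1 CPM. For BGN these were TPM4 (0.998), ZDHHC5 (0.998) and GPR153 (0.997). For DCN they were ENPEP (0.978), CPXM1 (0.977) and CALHM5 (0.977). For FMOD they included USP25 (0.972), and for LUM they were RECK (0.966), CENPQ (0.96) and 4732416N19RIK (0.957). For SPOCK3 they were HS6ST2 (0.988), PATJ (0.979) and PHLDB2 (0.978), and for SPOCK2 they included CCDC88C (0.956). The 8 points share 4 groups and 2 treatments, so r mostly describes the group means.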

How the data were processed

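RNA was sequenced from astrocytes of 4 groups (WT or RGC-32 KO, control or TGF-β), 2 biological replicates each, as unstranded libraries. The authors aligned reads with STAR (VIPER pipeline, mm10 per the labels) and deposited raw read counts per gene symbol. The program that counted reads is not given in the sources used here. The authors also deposited FPKM values, ascribed to Cufflinks, for 18644 genes. Their tables of fold changes and p-values for TGF-β against control were not used. Totals were 14920561 to 18956038 counts, and replicates differed by more than counting noise (chi-square per degree of freedom 6.26 to 10.4). Symbols were matched as written, and 21 names in the count table had become dates.

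The counts were fitted with edgeR 4.0.16 in R 4.3.3, using filterByExpr (minimum count 10), TMM, and 1 quasi-likelihood model of 4 group means on all 8 libraries, with two-sided p-values adjusted by the Benjamini-Hochberg method over 13509 genes. SE is the log2 fold change divided by the root of the F statistic, and intervals are 95%. CPM is scaled to the TMM library total (prior count 2 before logs). FPKM served to compare levels between genes and, as an alternative, was tested with limma 3.58.1 on log2(FPKM + 1) and log2(FPKM + 0.1) among genes of at least 0.1 FPKM in at least 2 libraries. DESeq2 1.42.0, limma-voom, other scalings and filters, Bonferroni correction, a replicate block and leaving out each library were alternatives. The steps were tested on simulated data.

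The members and all gene lists were chosen with earlier results of these data known. From each list were named the genes called in both genotypes and the 3 with the largest change in WT among those called in either. RGCC and, for each member, the 3 genes of most similar pattern were named too, except some that are not reported here. BMP1, SPARC, PODN and MMP15 were named after their values were seen.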

Additional observations from a re-analysis of the deposited data

Results flagged for a closer look

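SPOCK1 was absent from the count table used here and thus outside the comparisons of counts, but it had a signal in the FPKM table that was higher with TGF-β than in the control libraries. Its mean was 0.138 FPKM in WT TGF-β against 0.0602 in WT control, and 0.126 FPKM in KO TGF-β against 0.0764 in KO control. No test is given, because the gene passed the filter on low FPKM only through its TGF-β libraries, and the reads behind its values are unknown. Groups of 2 libraries are too small to test for a library that stands apart.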

How the results depend on the processing

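BGN kept its call and direction in both genotypes under every alternative. In WT, 3 members were called up in the main analysis and 1 (BGN) with edgeR on the 4 WT libraries alone, upper quartile scaling, the replicate block, Bonferroni correction or FPKM with a pseudocount of 1 or 0.1, and 1 to 2 when a library was left out. The count called down in WT, 1 (DCN), was 0 with Bonferroni correction and 0 to 1 when a library was left out. In KO, without a limit on the fold change, 2 members were called up and 1 down. In the genotype comparisons DESeq2 called 1 member (SPOCK3) with TGF-β and 1 over both treatments, and the crossed pairing called 1 over both treatments. Directions turned only for values that were not called. The WT change of FMOD was -0.0023 on FPKM with either pseudocount, and the WT-minus-KO difference of DCN with TGF-β was -0.15 to 0.10 when a library was left out. The interaction ranged from -0.35 to 0.095 for LUM (0.014 on FPKM with a pseudocount of 0.1) and from -0.089 to 0.50 for SPOCK3. The KO change of RGCC ranged from -0.68 to 0.83, and was -0.049 and -0.11 on FPKM with a pseudocount of 1 and 0.1. The cause was not tested for any of these.

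Over all genes, TGF-β in WT gave 1043 up and 763 down, against 143 and 31 with Bonferroni correction and 2514 and 1936 without a fold limit. FPKM gave 519 up with a pseudocount of 1 and 1270 down with 0.1, and leaving out a library gave 486 to 789 down. In KO the 893 up and 666 down became 119 and 22 with Bonferroni correction, 2243 and 1592 without a fold limit, 462 up with FPKM and a pseudocount of 1, 1257 down with 0.1, and 388 to 654 down when a library was left out. Upper quartile scaling moved the share of calls that were up to 44.8% (WT, 57.8% in the main analysis) and 45.5% (KO, 57.3%). Between genotypes without TGF-β, 5 genes were called, against 13 with DESeq2, 2 on 4 libraries, 3 with Bonferroni correction and 0 to 2 when a library was left out. With TGF-β, 6 were called, against 34 with DESeq2, 3 with limma-voom, 3 with Bonferroni correction and 0 to 1 when a library was left out. Over both treatments, 17 were called, against 44 with DESeq2, 5 with Bonferroni correction, 57 without a fold limit, 8 with FPKM and a pseudocount of 1, and 5 to 22 when a library was left out.

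The labels do not say that a replicate number marks a shared culture. Deviations of same-numbered libraries correlated at -0.343 between the WT groups and -0.348 between the KO groups, but at 0.491 between the control groups and 0.253 between the TGF-β groups, and at -0.483 and -0.507 between the groups that differ in both, so the numbers were not taken to pair the libraries across all 4 groups. The replicate block gave 1 member up in WT and 2, 3 and 9 genes between genotypes without, with and over TGF-β, and the crossed pairing, added after seeing the data, gave 10, 36 and 61, SPOCK3 over both treatments among the latter (adjusted p = 0.0301).

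Calls summed over both genotypes were 4 for the other leucine-rich proteoglycans (2 on 4 libraries, 0 with Bonferroni correction, 9 without a fold limit, 2 to 4 when a library was left out), and 7 for SPARC-related genes (4 with Bonferroni correction). They were 2 for linker enzymes (0 with Bonferroni correction, 4 without a fold limit), 3 for dermatan sulfate enzymes (0 and 6), and 0 for keratan sulfate enzymes (2 without a fold limit, 1 with FPKM and a pseudocount of 0.1, 0 to 1 when a library was left out). They were 4 for receptors (1 with Bonferroni correction, 9 without a fold limit, 1 with FPKM and a pseudocount of 1, 2 to 5 when a library was left out) and 12 for proteases (2 with Bonferroni correction). Calls were gained for OGN in KO without KO control replicate 1 and on FPKM with a pseudocount of 1 or 0.1 (log2 -0.63 and -0.64). DSEL gained a call in WT without WT TGF-β replicate 1. MET gained a call in WT without WT control replicate 1 or WT TGF-β replicate 1. It was also called in WT with upper quartile scaling (log2 -0.65) and on FPKM with a pseudocount of 0.1 (log2 -0.66).

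With 2 libraries a group the spread is estimated from 8 libraries together, and when a library is left out the lone one is assumed to vary like the rest. LUM and SPOCK2, at 41 to 139 counts a library, are the members that depth limits most, and SPOCK1 cannot be given a depth.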
